A study of Mus musculus with 38 samples.

Results

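Cortical microglia were taken here as the nuclei of adult mouse cortex in which the transcripts of Inpp5d, Siglech, Runx1 and Ikzf1 summed to at least 3 unique molecular identifiers (UMIs, each standing for 1 captured RNA molecule) and exceeded the sum of the marker transcripts of every other class. The other 5 classes were excitatory neurons (Slc17a7, Neurod6), inhibitory neurons (Gad1, Gad2), astrocytes (Gli3, Acsbg1, Slco1c1, Slc7a10, Fgfr3), oligodendrocytes (Mog, Mag, St18, Prr5l) and oligodendrocyte progenitors (Pdgfra, Vcan, Cspg4). This rule found 830 microglia among 14296 nuclei. The nuclei came from 4 animals, 2 Trim28-KO (60 and 73) and 2 control (64 and 65), and the microglia numbered 195 in KO 60, 232 in KO 73, 224 in control 64 and 179 in control 65.

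The study deleted Trim28, which encodes a co-repressor that recruits heterochromatin-forming enzymes to transposable elements, in the developing mouse cortex and asked how the cells of the adult cortex changed. Animals were 3 months old, and 8500 nuclei per cortex were sorted and loaded on a 10x 3′ chip. According to the labels, both groups came from a cross of Emx1-Cre (+/-); Trim28-fl (+/-); gtRosa(+/-) males with Trim28-fl (+/+) females. The KO genotype was Emx1-Cre +/-; Trim28-fl +/+, with both Trim28 alleles excised, and the control genotype was Emx1-Cre +/-; Trim28-fl+/-, so that the controls carried Cre and had lost 1 allele in the same cells. Emx1-Cre acts in the progenitors of cortical excitatory neurons, astrocytes and oligodendroglia. Microglia do not come from these progenitors, so the comparison asks how microglia with intact Trim28 differed when their neighbours lacked it. Whole-cortex RNA of 6 animals of the same cross was also sequenced, 3 KO (60, 73 and 76) and 3 control (64, 65 and 77), and includes the 4 animals of the nuclei.

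Microglia are the resident macrophages of the brain. They descend from yolk sac progenitors, depend on the receptor Csf1r, survey the tissue through receptors such as P2ry12 and Cx3cr1, and clear cells and synapses through complement, phagocytic receptors and lysosomal enzymes. On activation they lower surveillance genes and raise genes such as Apoe, Cst7, Spp1 and Axl, inflammatory cytokines or interferon-stimulated genes.

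The label held against markers that the rule did not use. Of 22 further microglial markers, among them Csf1r, Cx3cr1, P2ry12 and C1qa, the microglia carried a median of 33 UMIs per nucleus, and 99.5% of them carried 3 or more. The summed level of these 22 genes was 16766 CPM in microglia (UMIs per 1000000 UMIs of the class) and between 184 and 340 CPM in the other 5 classes. Csf1r, the receptor for colony stimulating factor 1, was detected in 87.8% of microglia and in 2.43% of the nuclei of the other 5 classes, although those classes were deeper, with median depths of 2009 to 12917 UMIs per library. Of the 22 genes 3 did not serve as markers. The transcription factor gene Irf8 had 0 UMIs in all nuclei of every class, the integrin gene Itgam had 1 UMI in the microglia, and Arhgap15 was detected in 7.95% of microglia and in 39.0% of the nuclei of the other 5 classes. The adaptor gene Myd88 and the nuclease gene Trex1 were likewise at 0 in all nuclei, so a 0 in these matrices was not read as absence of the transcript. Lymphocyte and granulocyte markers reached 3 UMIs in 3 microglia, vascular markers in 0 and meningeal fibroblast markers in 1. The members just inside the threshold, with a marker sum of 3, numbered 47, and 29 nuclei with a sum of 2 lay just outside it. A further 20 nuclei reached 3 or more but were tied with or below another class.

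Depth differed between the libraries. The microglia held 344987 UMIs in KO 60, 429863 in KO 73, 503998 in control 64 and 386802 in control 65. The median per nucleus was 1495, 1606, 1991 and 1793 UMIs in the same order, lower in both KO animals, and the median number of genes detected was 1052, 1105.5, 1300.5 and 1234. At an equal depth of 1000 UMIs per nucleus the medians were 760, 760, 746 and 764 genes. Between libraries, 36 barcodes occurred more than once, 20 of them between KO 60 and control 64, and 3 of the 36 belonged to a microglial nucleus in 1 of the libraries. Xist was at 2008 to 2275 CPM and the Y-linked gene Ddx3y at 2.90 to 5.17 CPM in the 4 libraries.

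Control 65 stood apart in neuronal RNA. A list of 45 genes that are abundant in neurons took a median of 1.44% of the UMIs of a microglial nucleus in KO 60, 1.41% in KO 73, 1.65% in control 64 and 3.01% in control 65. The share was also highest in control 65 in astrocytes (3.82, 3.78, 4.86 and 5.82%), oligodendrocytes (3.66, 3.45, 3.93 and 4.93%) and progenitors (8.76, 8.46, 9.10 and 9.88%), and in each of these classes both KO medians lay below both control medians. In addition, 23 microglia with more than 5000 UMIs (5, 6, 5 and 7 per library) held 15.0% of all microglial UMIs but 53.8% of the UMIs of the neuronal list. Of these 23 nuclei, 20 carried a neuronal class marker.

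**Figure D1:**
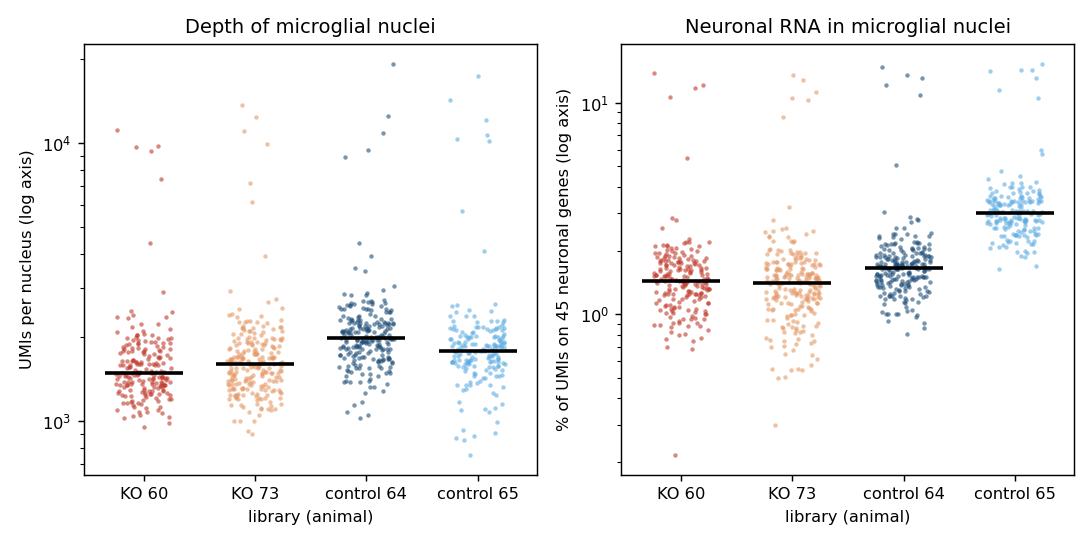
UMIs per nucleus (left) and percent of UMIs on 45 neuronal genes per nucleus (right) for the 830 microglia of the 4 libraries, on log axes, with 1 point per nucleus and black bars at the medians. The medians of the right panel are 1.44, 1.41 and 1.65% in KO 60, KO 73 and control 64 and 3.01% in control 65. The nuclei with more than 5000 UMIs lie at the top of the left panel. They also lie at the top of the right panel, except 1 nucleus of KO 60 with 16 neuronal UMIs among 7428.

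Microglia were set apart from the other 5 classes by many transcripts, and the most abundant of these are named here. The 4028 nuclei that fell in no class were not part of this comparison. A gene was counted as microglia-high where its mean over the 4 animals was at least 20 CPM and, with 5 CPM added to both sides, at least 8-fold above the highest of the other 5 classes, and at least 4-fold above it in every animal. By this measure 308 genes were microglia-high, 146 of them also at 16-fold, and the median margin over the next class was 15.5-fold. They took 9.32% of microglial UMIs. Because the nuclei were chosen by microglial transcripts, these margins are a description and were not tested. The last gene inside the margin was 1700011I03Rik at 8.02-fold and the first outside it was Itgb5 at 7.98-fold. The next highest class was oligodendrocytes for 116 of the 308 genes, astrocytes for 67, progenitors for 66 and a neuronal class for 59.

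Among the 20 microglia-high genes with the most UMIs were 3 receptors of microglial identity. Csf1r was at 1278 CPM in KO 60, 1205 in KO 73, 1290 in control 64 and 1019 in control 65, against 11.2 CPM in oligodendrocytes, the next class. P2ry12, the purine receptor that steers microglial processes, was at 1020, 1233, 1444 and 1008 CPM in the same order. Cx3cr1, the receptor for the neuronal chemokine fractalkine, was at 1128, 1256, 1258 and 822.1 CPM. All 3 overlapped between KO and control, with control 65 lowest in each.

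Signalling genes formed a second group. Inpp5d, an inositol phosphatase of immune receptors and 1 of the 4 genes of the rule, was at 2110, 2091, 1764 and 1903 CPM, 146-fold over the next class with the added 5 CPM. Tgfbr1, the type I receptor for TGF-beta on which the adult microglial state depends, was at 2641, 2610, 2315 and 2107 CPM. Dock8, an exchange factor for Cdc42, was at 1055, 1231, 1107 and 1008 CPM and had a margin of 94.6-fold. The Src-family kinase Lyn and the adaptor Pag1 were also in this group, together with Selplg, Apbb1ip, Pde3b, Epb41l2 and Hmha1.

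Complement and lysosomal genes completed it. The 3 chains of C1q, the first component of complement, were each lowest in control 65. C1qa was at 1748, 1875, 1939 and 618 CPM, C1qb at 1304, 1405, 1343 and 496 CPM, and C1qc at 1299, 1342, 1290 and 507 CPM. The cysteine protease Lgmn was at 1078, 1254, 1224 and 858 CPM. The transcription factors Mef2a and Zfhx3 were also among the 20.

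**Figure D2:**
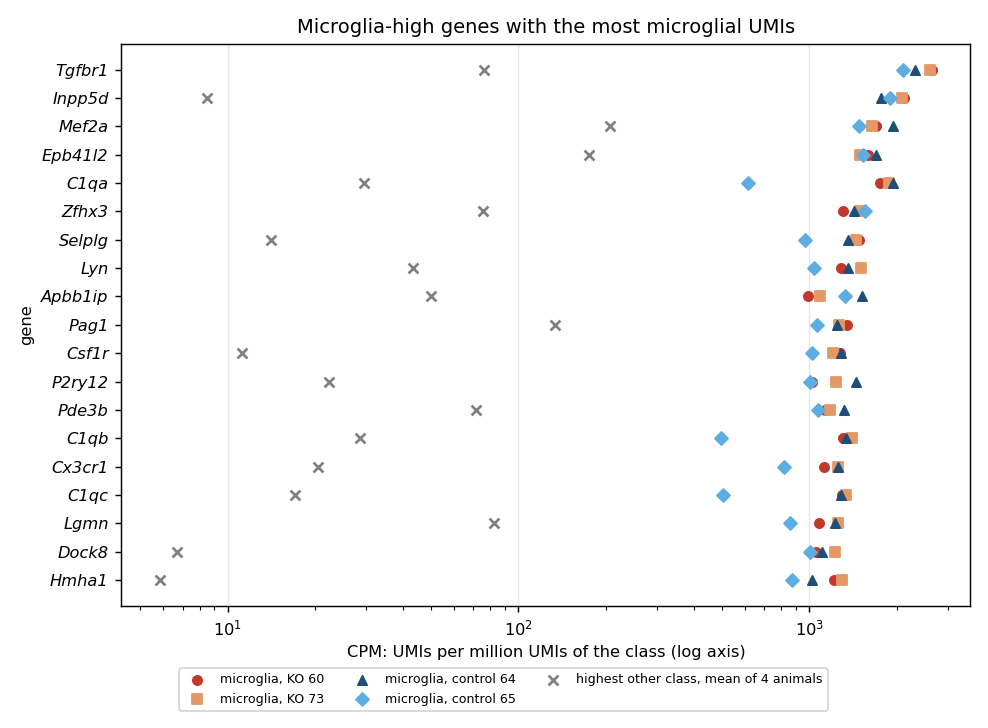
CPM in microglia of each of the 4 libraries (points) for 19 of the 20 microglia-high genes with the most microglial UMIs, with the mean CPM of the next highest class beside them, on a log axis. The points of microglia lie above the mark of the next class for each gene shown. With 5 CPM added to both sides, the margin of the means is 8.04-fold for Mef2a and 146-fold for Inpp5d. The axis shows CPM without this addition.

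The promoters of these genes were searched for the core motif of PU.1, the myeloid transcription factor encoded by Spi1, because the 308 genes share their class. The letters GAGGAAGT were looked for on both strands of the RefSeq promoters of GRCm38.p6, from 250 bases before to 50 after the start, which were given for 238 of the 308 genes. They occurred in 35 of these 238 promoters (14.7%), in 709 of 18951 promoters of the genes of the matrices (3.74%) and in 997 of all 27025 promoters (3.69%). At the 16-fold margin the count was 22 of 108 (20.4%). A match describes the letters and does not show binding. The sites in the 4 matching genes with the most microglial UMIs, the fourth being the cathepsin S gene Ctss, are shown as 30 bases on the strand of the gene, with the motif or its reverse complement in capitals.
Inpp5d, chr1:87620281-87620310, plus strand: gtttctataatGAGGAAGTtctgtgcagct
Apbb1ip, chr2:22774321-22774350, plus strand: gggctcaaagcACTTCCTCctccctgagcc
C1qc, chr4:136893091-136893120, minus strand: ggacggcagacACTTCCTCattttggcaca
Ctss, chr3:95526773-95526802, plus strand: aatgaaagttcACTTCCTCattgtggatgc
The motif begins 20 bases before the RefSeq start in Inpp5d and 195 bases before it in C1qc.

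The share of nuclei that were microglia overlapped between the groups under the marker rule. It was 5.13% in KO 60 (exact binomial 95% interval 4.45 to 5.88%), 5.99% in KO 73 (5.27 to 6.79%), 6.41% in control 64 (5.62 to 7.27%) and 5.72% in control 65 (4.93 to 6.59%). The mean was 0.50 percentage points lower in KO (exact permutation test over animals, two-sided p = 0.667, where 0.333 is the smallest p that 2 against 2 can give). The intervals cover counting error only. In 3 other settings the groups did not overlap. Both KO animals lay below both controls among the nuclei within 3 median absolute deviations of detected genes (4.43 and 3.57% against 6.57 and 5.61%), at a marker sum of at least 5 (4.32 and 4.93% against 5.84 and 5.02%) and as a share of the nuclei in 1 of the 6 classes (7.03 and 8.13% against 8.85 and 8.48%). The differences of the means were −2.09, −0.80 and −1.08 percentage points, each with the smallest p that the exact test can give (0.333). The filter on detected genes kept 160 and 128 microglia in KO and 224 and 172 in control. As a share of the 4 glial classes the mean was 22.1% in KO and 19.2% in control, so the direction depended on the denominator. Oligodendrocytes numbered 313 and 284 in KO and 609 and 375 in control.

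Trim28 itself was counted in microglia at 8, 10, 8 and 11 UMIs in KO 60, KO 73, control 64 and control 65, or 23.2, 23.3, 15.9 and 28.4 CPM. The groups overlapped, and the gene was below the filter on low counts and was not tested. In excitatory neurons, in which Emx1-Cre acts, the level was 5.96 and 6.63 CPM in KO and 9.33 and 7.38 CPM in control (log2 fold change −0.46, edgeR quasi-likelihood adjusted p = 0.180). The UMIs are read from the 3′ end of the transcript, so they need not cover the excised exons and do not check the labels of the nuclei. Reads of whole cortex did separate the groups, with 6.08, 8.53 and 8.88 CPM in KO and 20.9, 19.0 and 21.4 CPM in control.

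No gene passed the test between KO and control microglia. UMIs were summed per animal over its microglia, and of 7415 genes tested with edgeR's quasi-likelihood method 0 were called at a Benjamini-Hochberg adjusted p under 0.05 (0%). At an unadjusted p under 0.05 there were 621 genes (8.37%), and DESeq2 called 11, of which 10 were lower in KO. Both KO animals lay above both controls for 22.8% of the genes tested and below both for 16.7%. The p-values measure the spread between 2 animals per group. The count rested on the controls. With control 64 left out 525 genes were called, with control 65 left out 69 (0.833%), and in these fits the lone control is assumed to vary like the KO animals. It also rested on the choice of nuclei, since 40 genes (0.751%) were called among the 554 microglia in which every other marker sum was 0, of which 36 were lower in KO. Without the nuclei above 5000 UMIs the count was 0 of 6518.

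The genes with the smallest p that were higher in KO included 2 chaperones, a cell cycle regulator and a mitochondrial transcript, and none passed the test. Hspa8, the constitutive Hsc70 chaperone, was at 220 CPM in KO 60, 233 in KO 73, 91.3 in control 64 and 80.1 in control 65, a log2 difference of 1.35 ± 0.23 (SE, adjusted p = 0.112 by edgeR's quasi-likelihood test). Hsp90ab1, which encodes Hsp90-beta, was at 186, 214, 71.4 and 80.1 CPM (log2 difference 1.36 ± 0.24). Ccnd3, which encodes cyclin D3, was at 806, 933, 450 and 403 CPM (log2 difference 0.98 ± 0.18). The groups did not overlap for any of the 3. The same held for mt-Cytb, the mitochondrial cytochrome b transcript, at 348, 372, 159 and 98.2 CPM, and for Ccdc107 at 133, 121, 37.7 and 46.5 CPM. The mitochondrial share of microglial UMIs was 0.218, 0.214, 0.124 and 0.100%, and the mitochondrial share of all nuclei was 0.188, 0.0966, 0.0714 and 0.116%. Hspa8 was also higher in KO oligodendrocytes (log2 difference 0.81, adjusted p = 0.0197) and excitatory neurons (0.80, adjusted p = 0.00934) by edgeR's quasi-likelihood test.

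The genes with the smallest p that were lower in KO included adhesion and synaptic genes, and none passed the test. Mgat4c, a glycosyltransferase gene, was at 75.4 CPM in KO 60, 58.2 in KO 73, 256 in control 64 and 261 in control 65 (log2 difference −2.00 ± 0.24, edgeR adjusted p = 0.0580). Sgcd, which encodes delta-sarcoglycan, was at 17.4, 27.9, 145 and 116 CPM (log2 difference −2.53 ± 0.34, adjusted p = 0.0811). Ncam2, a neural cell adhesion gene, was at 81.2, 83.7, 232 and 476 CPM. In each the KO animals lay below both controls. The deepest nuclei held a large part of these transcripts. Without the nuclei above 5000 UMIs, Mgat4c was at 23.5, 27.1, 24.8 and 88.2 CPM, so that KO and control overlapped, and Sgcd was at 13.4, 10.8, 45.2 and 35.9 CPM. Frmpd4, a postsynaptic scaffold gene, and the cadherin gene Cdh18 were the other 2 of the 5, at 125, 186, 405 and 520 CPM and at 66.7, 69.8, 194 and 323 CPM. Without the deep nuclei Ncam2 was at 47.1, 35.2, 88.1 and 170 CPM, Frmpd4 at 53.8, 51.4, 108 and 212 CPM and Cdh18 at 33.6, 32.5, 49.7 and 121 CPM, so that both KO animals still lay below both controls in these 3.

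All 7 genes that the study named for microglia are among the abundant transcripts of neurons or oligodendroglia, and none passed the test here. The study chose them on these nuclei, so their direction is not independent evidence. Nrg3, a neuregulin gene, was at 600 CPM in KO 60, 877 in KO 73, 940 in control 64 and 1807 in control 65 (log2 difference −0.93 ± 0.29, edgeR adjusted p = 0.416). Pcdh9, a protocadherin gene, was at 554, 640, 968 and 1820 CPM (−1.26 ± 0.27, adjusted p = 0.215). Csmd1, a gene of a complement-regulating membrane protein, was at 646, 656, 893 and 1590 CPM (−0.97 ± 0.25, adjusted p = 0.341). In each of the 3 both KO animals lay below both controls, and control 65 was far above control 64. The detection of Nrg3 followed the same order, at 23.6, 27.6, 46.9 and 74.3% of microglia and, at 1000 UMIs per nucleus, 14.5, 18.4, 28.1 and 56.4%. Its level was higher by several-fold in excitatory neurons, at 4480, 4567, 5284 and 5566 CPM. Without the nuclei above 5000 UMIs, Nrg3 in microglia was at 202, 181, 314 and 836 CPM, Pcdh9 at 208, 257, 336 and 918 CPM and Csmd1 at 168, 149, 237 and 601 CPM.

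Leaving out control 65 moved these 7 genes toward 0. The log2 difference was then −0.38 for Nrg3, −0.73 for Pcdh9 and −0.50 for Csmd1, and of the 7 genes only Pcdh9 was called (edgeR adjusted p = 0.000854). Celf2 and Cadm2, which encode an RNA-binding and an adhesion protein, were below both controls in both KO animals, with log2 differences of −0.65 and −0.80. Kcnip4 and Snhg11 overlapped between groups, and their differences of −0.51 and −0.34 turned to 0.0794 and 0.0296 without control 65. The neuronal list as a whole behaved alike. Both KO animals were below both controls for 25 of its 45 genes (16.7% of all genes tested), and its median log2 difference was −0.73, against 0.00 over all genes. That median was −0.12 without control 65, −1.13 without control 64 and −0.98 without the nuclei above 5000 UMIs. Its summed level was 27126, 27834, 30671 and 51590 CPM, higher in both controls than in either KO animal and highest in control 65. Whether these transcripts were made in microglia or came with them from other cells was not tested.

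Aif1 and Cd68, whose proteins the study measured in cortex, did not pass the test either. Aif1, which encodes Iba1, was at 92.8 and 86.1 CPM in KO and 69.4 and 49.1 CPM in control (log2 difference 0.53 ± 0.30, edgeR adjusted p = 0.671), on 19 to 37 UMIs per library. Cd68, a lysosomal membrane glycoprotein gene, was at 136 and 112 CPM in KO and 181 and 72.4 CPM in control (−0.11 ± 0.37, adjusted p = 0.972), with the KO values between the control values.

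The summed level of homeostatic genes in the KO animals lay between the levels of the controls. The list held 30 genes, all tested, 0 of which were called, and the median log2 difference was 0.16, which turned to −0.14 without control 65. Both KO animals were above both controls for 6 genes and below both for 2, or 20.0 and 6.67% of the list against 22.8 and 16.7% of all genes tested. The sum was 28381 CPM in KO 60, 30524 in KO 73, 31268 in control 64 and 20949 in control 65. Cst3, which encodes cystatin C, was at 5534, 7126, 6788 and 2407 CPM. Mef2c, a transcription factor of microglia and neurons, was at 1791, 1945, 1994 and 1805 CPM. The 2 KO animals and control 64 lay close together in the sum, and control 65 was below them.

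Genes of the disease-associated state were not called in either direction. Of 37 genes in the matrices 19 were tested and 0 called, with a median log2 difference of 0.28, which fell to −0.04 without control 65. Both KO animals were above both controls for 6 of the 19 and below for 0, against 22.8 and 16.7% of all genes tested. Apoe, the lipid carrier, was at 829, 616, 522 and 253 CPM (log2 difference 0.84 ± 0.29, edgeR adjusted p = 0.489), but 113 of the 286 UMIs of KO 60 lay in 1 nucleus. Control 65 was also lowest for Apoe in astrocytes (2115, 2215, 1654 and 784 CPM), oligodendrocytes (575, 549, 490 and 211) and progenitors (836, 967, 925 and 396). Trem2, a lipid-sensing receptor, was at 571, 516, 478 and 279 CPM, and the protease Ctsd at 1058, 1189, 1224 and 639 CPM. The genes that rise most strongly in that state were near the floor. Over all 1665650 microglial UMIs, where 3 counts equal 1.80 CPM, Cst7 and Spp1 had 3 UMIs each, Axl 2, Itgax 6 and Lpl 11, and Gpnmb had 0. No difference in these genes was detectable at this depth.

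Inflammatory, interferon and antigen-presentation genes gave 0 calls. Of the 35 genes of cytokines and NF-kB signalling 14 were tested, with a median log2 difference of 0.24, and 8 had 0 UMIs in microglia. Tnf had 11 UMIs in all, Il6 31 and Ccl3 6, while Il1b, Ccl2, Cxcl10 and Ptgs2 had 0. Nfkb1, a subunit of NF-kB, was at 272, 319, 325 and 308 CPM, and the signalling adaptor Irak2 was at 330, 330, 339 and 346 CPM, with little spread between animals. The interferon-stimulated list summed to 1113 and 1205 CPM in KO and 1105 and 933 CPM in control. Of its 39 genes in the matrices 16 were tested (median log2 difference 0.19), and Ifit1, Ifi44 and Rsad2 had 0 UMIs. Trim30a was at 165, 172, 212 and 155 CPM.

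Antigen-presentation genes summed to 1229 and 1540 CPM in KO and 1125 and 745 CPM in control, above both controls in both KO animals. Of 10 genes tested 0 were called, 6 had both KO animals above both controls (22.8% of all genes tested), and the median log2 difference was 0.46, or 0.27 without control 65. H2-D1 and H2-K1, the classical class I heavy chains, were at 186, 309, 165 and 67.2 CPM and at 171, 198, 131 and 46.5 CPM. They are near-identical genes, and the counting could split reads between them. B2m, their light chain, was at 183, 179, 179 and 98.2 CPM. The class II chaperone Cd74 had 42 UMIs, 34 of them in KO 73, and the same number lay in its 2 highest nuclei.

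The sum of the stress and immediate-early genes separated the groups. It came to 1142 CPM in KO 60, 1042 in KO 73, 704 in control 64 and 631 in control 65. The KO microglia also had the lower median depth (1495 and 1606 against 1991 and 1793 UMIs) and the higher mitochondrial share (0.218 and 0.214 against 0.124 and 0.100%), whose part in the result was not tested. Of 10 genes tested, both KO animals were above both controls for 9, against 22.8% of all genes, but 0 were called, and the median log2 difference was 0.54. Besides Hspa8 these included Btg2 at 148, 97.7, 75.4 and 64.6 CPM, Rhob at 177, 172, 139 and 101 CPM and Junb at 119, 116, 115 and 95.7 CPM. The log2 difference of Junb was 0.11 in microglia, and 1.34 in astrocytes, 1.54 in oligodendrocytes and 1.44 in excitatory neurons, none of which passed the test by edgeR (adjusted p = 0.0550 or more).

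The other lists of microglial function had medians between −0.06 and 0.27. Complement genes had a median log2 difference of 0.21 over 11 tested, microglial transcription factors −0.06 over 28, purinergic and chemokine receptors 0.27 over 26, phagocytic and lysosomal genes 0.10 over 44, nucleic acid sensors 0.13 over 23 and TGF-beta signalling 0.02 over 14. In each of the 6 lists 0 genes were called. Some of these signs rested on control 65, and without it the median was −0.0274 for complement, −0.0860 for phagocytic and lysosomal genes and −0.0948 for TGF-beta signalling. Among the sensors, Unc93b1, the chaperone of endosomal Toll-like receptors, was at 861, 1035, 810 and 654 CPM, and Aim2, a sensor of cytosolic DNA, at 217, 261, 369 and 243 CPM. Elmo1, an engulfment adaptor, was at 2357, 2382, 2823 and 2715 CPM, and Mertk, a receptor for dying cells, at 2093, 1370, 1778 and 1691 CPM. The 308 microglia-high genes had a median of 0.06, with 174 above 0.

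**Figure D3:**
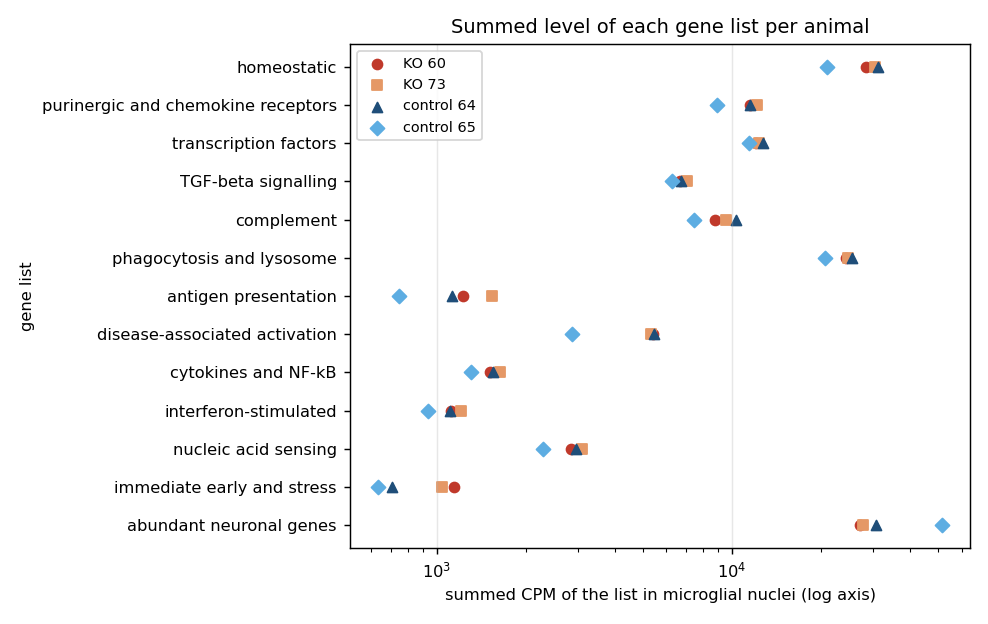
Summed CPM per animal in microglia for each gene list, with KO and control animals as separate points on a log axis. The stress list separates KO (1142 and 1042 CPM) from control (704 and 631 CPM), the neuronal list is highest in control 65 (51590 CPM), and the homeostatic and disease-associated lists are lowest in control 65.

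Microglia differed from the other glia in the response of a few genes to the deletion. UMIs of astrocytes, oligodendrocytes and progenitors were summed per animal in the same way, and the KO effect in microglia was compared with the mean effect in these 3 classes in 1 edgeR quasi-likelihood fit with the animal as a term. Of 11693 genes 22 were called at an adjusted p under 0.05 (0.188%), 20 of them with the lower effect in microglia (0.171%). In 10 of the 22 at least 1 of the other glial classes was itself called. In 11 none of them was, and microglia were lower in KO at an unadjusted p under 0.05. The remaining 1 was higher in KO microglia. The count was 5 without KO 60, 10 without KO 73, 75 without control 64 and 14 without control 65. Within single classes, 116 of 10825 genes were called in astrocytes (1.07%), 287 of 9777 in oligodendrocytes (2.94%), 27 of 7214 in progenitors (0.374%) and 1278 of 15367 in excitatory neurons (8.32%). In inhibitory neurons, which like microglia do not come from the Emx1 lineage, 0 of 12267 were called by edgeR (0%), with 1711 (13.9%) at an unadjusted p under 0.05. The share higher in KO was 0.536% in astrocytes, 1.79% in oligodendrocytes and 0.236% in progenitors.

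Of the 10 genes called in other glia, in which Emx1-Cre acts, 9 were called higher in KO there, and 5 of these were transcripts from a cluster on chromosome 4. Gm26624 (chr4:147136278-147457019, GRCm38.p6, plus strand) was at 145 and 120 CPM in KO astrocytes and 14.3 and 14.001 CPM in control astrocytes, and at 153 and 143 against 18.1 and 15.5 CPM in oligodendrocytes. In microglia it was at 78.3 and 74.4 CPM in KO and 117 and 101 CPM in control. All 4 microglial values lay above the control values of the other glia, of which the highest was 30.6 CPM, and the difference of the KO effects was −3.38 ± 0.29 on the log2 scale (edgeR adjusted p = 7.79e-09). Gm26573 (chr4:146153456-147024959, minus strand) was at 127 and 97.3 CPM in KO and 17.8 and 14.001 CPM in control astrocytes, and at 98.6 and 93.1 CPM in KO and 83.3 and 59.5 CPM in control microglia (difference −2.12 ± 0.33). C230088H06Rik (chr4:147018235-147492201, minus strand) was at 87.7 and 90.8 against 7.14 and 4.31 CPM in astrocytes and at 87.0 and 161 against 107 and 67.2 CPM in microglia (difference −2.55 ± 0.35).

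Control microglia thus carried these transcripts at higher levels than control astrocytes. The same held for the neighbours Gm13251 and Gm13248 on the plus strand. Gm13251 was at 17.4, 18.6, 25.8 and 12.9 CPM in microglia and at 21.5, 19.6, 0.714 and 3.23 CPM in astrocytes, and Gm13248 was at 20.3, 27.9, 35.7 and 23.3 CPM in microglia and at 18.5, 16.7, 0.714 and 1.08 CPM in astrocytes. Several of these genes overlap each other or have near-identical copies in the cluster, and the counting could split reads among them. Outside the cluster Zfp808, a zinc finger gene (chr13:62129886-62236144, plus strand), was at 52.2, 55.8, 87.3 and 77.6 CPM in microglia and at 115, 97.3, 32.8 and 40.9 CPM in astrocytes (difference −2.03 ± 0.33). Zbtb16, Gm28153 and Spag5 also rose in at least 1 of the other glial classes. Tgfa, a growth factor gene, fell in KO astrocytes, to 1.54 and 0.726 CPM from 24.98 and 29.1 CPM, and was at 104, 100, 103 and 106 CPM in microglia (difference 1.61 ± 0.33, edgeR adjusted p = 0.0256).

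The 11 genes that were lower in KO microglia were Sgcd, Ncam2, Rorb, Mgat4c, Chsy3, Dcc, Rapgef4, Mmp16, Frmpd4, Itpr1 and Lrrc4c. Several of them encode adhesion, guidance and signalling proteins of neurons. The differences of the KO effects ran from −1.08 (Lrrc4c) to −2.12 (Sgcd). Dcc, the netrin receptor gene, was at 95.7, 105, 210 and 321 CPM in microglia and at 927, 969, 811 and 636 CPM in astrocytes. All 11 also had a log2 difference below 0 in excitatory neurons of the same animals, from −0.0659 (Itpr1) to −0.80 (Mgat4c), and 6 of the 11 were called lower there by edgeR, against 4.13% of all genes tested in that class. When the nuclei above 5000 UMIs were left out, 2 of these 11 and 9 of the other 10 were still called, without control 65 it was 4 and 6, and among the nuclei in which every other marker sum was 0 it was 6 and 8. The remaining gene, 1110019D14Rik, was at 130 and 102 CPM in KO and 69.4 and 54.3 CPM in control microglia (difference 1.46 ± 0.32), and its call was lost without the nuclei above 5000 UMIs (edgeR adjusted p = 0.0765).

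**Figure D4:**
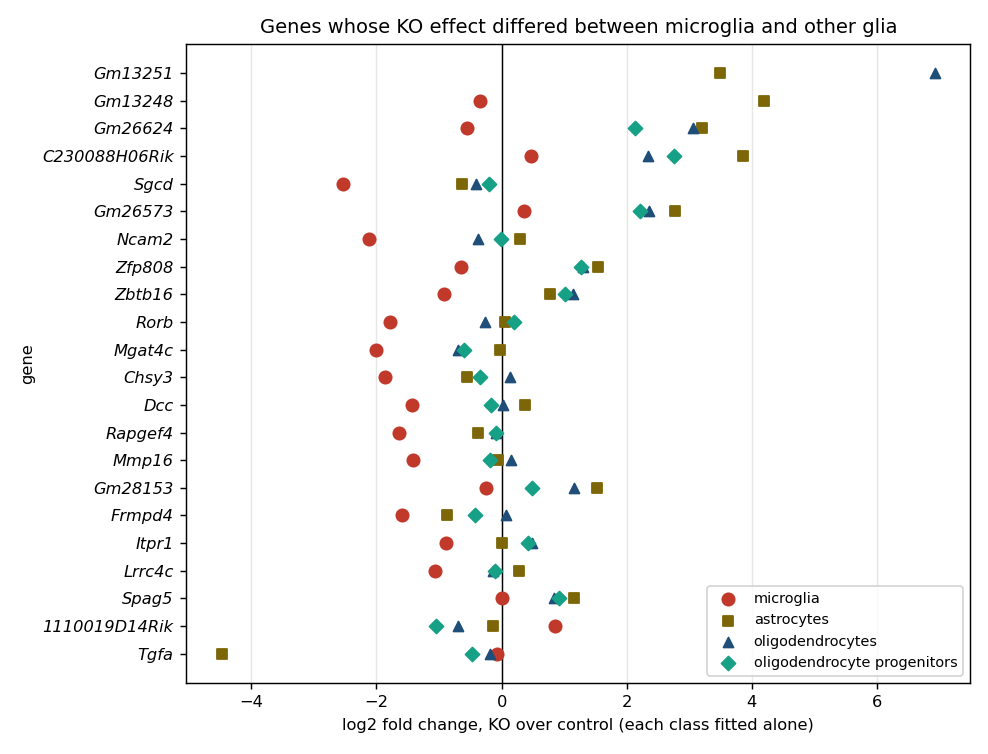
Log2 KO effect in microglia, astrocytes, oligodendrocytes and progenitors for the 22 genes whose effect differed between microglia and the other glia, each class fitted alone, with no point where a gene was too low in a class to be tested. For Gm26624 the microglial point lies at −0.56 and those of the other glia at 3.20, 3.06 and 2.13, while for Ncam2 the microglial point lies at −2.12 and the others between −0.38 and 0.30.

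In whole cortex, few microglia-high genes differed between KO and control. The 3 KO and 3 control samples held 16749000 to 25345100 counted reads (rounded). Fewer microglia and less RNA per microglial cell cannot be told apart in such samples. KO 76 stood apart, since Gm42418, which overlaps a ribosomal RNA repeat, took 14.1% of its reads and Lars2 2.89%, against at most 0.37 and 0.19% in the other samples. Of the 308 genes 252 were tested, and 3 of them were called by edgeR's quasi-likelihood test (1.19%), next to 223 of all 16271 genes (1.37%), 142 of these higher in KO (0.873%). All 3 were higher in KO. At an unadjusted p under 0.05 there were 18 of the 252 (7.14%) and 9.15% of all genes. The median log2 difference of the 252 genes was −0.04, against 0.01 over all genes, and 101 of them were above 0.

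Rgs10, which encodes a regulator of G protein signalling abundant in microglia, had the most reads of the 3. It was at 31.8, 37.8 and 34.9 CPM in KO and at 16.6, 15.1 and 18.3 CPM in control cortex, so that every KO sample exceeded every control (log2 difference 1.06 ± 0.11, edgeR adjusted p = 0.000291). In the nuclei, the microglial level of Rgs10 was 475 and 456 CPM in KO and 536 and 432 CPM in control, which overlap, whereas in excitatory neurons it was at 22.5 and 22.4 CPM in KO and 4.63 and 6.29 CPM in control. Lst1, a leukocyte gene of the class III region, was at 2.61, 2.33 and 3.09 CPM in KO and 1.45, 1.31 and 1.16 CPM in control cortex. Its log2 difference was 1.01 ± 0.22 (edgeR adjusted p = 0.0458), on 24 to 46 reads per sample. The call was lost by edgeR without KO 76 (adjusted p = 0.0750) and in the 4 animals with nuclei (adjusted p = 0.215). DESeq2 on all samples did not call it either (adjusted p = 0.0671). Gm13247, a further gene of the chromosome 4 cluster, had 31, 27 and 25 reads in KO and 2, 1 and 1 in control. In the nuclei it was at 168, 181, 121 and 109 CPM in microglia and at 11.98, 9.16, 2.10 and 1.08 CPM in excitatory neurons.

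P2ry12 and Csf1r, receptors of microglial identity, overlapped between the groups in whole cortex. P2ry12 was at 48.4, 53.6 and 60.6 CPM in KO and 48.6, 50.2 and 64.2 CPM in control, and Csf1r at 32.0, 43.5 and 49.4 against 40.3, 38.6 and 49.9 CPM. Aif1 was at 10.3, 8.01 and 15.2 CPM in KO and 7.55, 6.53 and 6.67 CPM in control (log2 difference 0.67 ± 0.21, edgeR adjusted p = 0.210), and the difference was 0.40 without KO 76. Every KO sample exceeded every control, yet the gene did not pass the test. Cd68 was at 2.61, 3.05 and 3.88 CPM in KO and 2.94, 2.83 and 3.91 CPM in control. Sparc and Alox5ap had the next smallest p upward and Blnk and Slc16a6 were among the smallest downward, without passing. Blnk, the gene of a B cell adaptor, was at 2.73, 2.02 and 4.44 CPM in KO and 4.83, 5.49 and 6.18 CPM in control (log2 difference −0.89 ± 0.24, edgeR adjusted p = 0.136). It was called lower by edgeR without KO 76 (−1.21, adjusted p = 0.00289) and in the 4 animals with nuclei (−1.12, adjusted p = 0.0343). In the nuclei, the microglial level of Blnk was 461 and 528 CPM in KO and 482 and 416 CPM in control, which overlap. In excitatory neurons Blnk was at 5.91 and 4.36 CPM in KO and 12.007 and 12.006 CPM in control. Sparc, a matricellular glycoprotein gene, had a log2 difference of 0.46 and was called by DESeq2 (adjusted p = 0.0118).

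**Figure D5:**
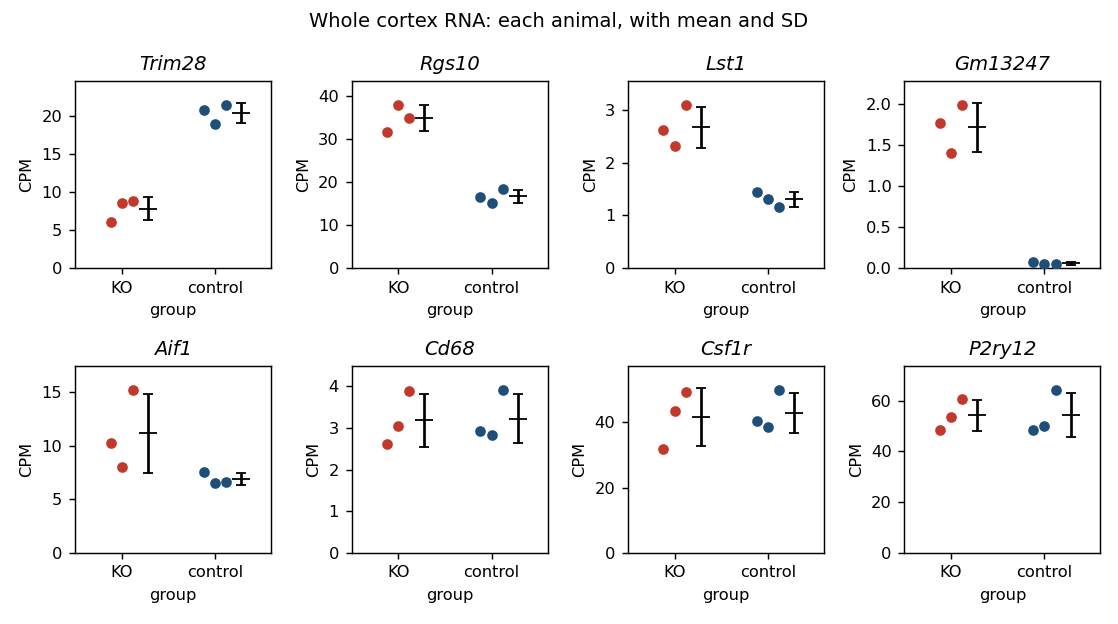
CPM in whole cortex of each of 3 KO and 3 control animals for Trim28, Rgs10, Lst1, Gm13247, Aif1, Cd68, Csf1r and P2ry12, with bars at the mean ± SD. KO and control do not overlap for Trim28, which is lower in KO, or for Rgs10, Lst1, Gm13247 and Aif1, which are higher, and they overlap for Cd68, Csf1r and P2ry12.

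A minority of the nuclei carried transcripts of border macrophages, the macrophages of meninges and vessels, which share many genes with microglia. Markers such as Mrc1, F13a1 and Cd163 summed to 3 or more UMIs in 47 of the 830 nuclei, 11 in KO 60, 14 in KO 73, 10 in control 64 and 12 in control 65. In these nuclei Apoe was at 4262 CPM and Siglech at 423 CPM, while in the nuclei with 0 such UMIs Apoe was at 321 CPM and Siglech at 822.8 CPM. P2ry12 was at 817 and 1164 CPM in the same 2 subsets. Leaving the 47 nuclei out gave 1 called gene between KO and control.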

How the data were processed

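The authors aligned the nuclei libraries with Cell Ranger 3.0 to a pre-mRNA reference and deposited UMI counts per gene for the barcodes that it called as nuclei. For whole cortex the authors aligned reads with STAR 2.6.0 to GRCm38.p6 and deposited raw counts of uniquely mapped reads per gene from featureCounts (Subread 1.6.3). A second deposited table holds gene counts from TEtranscripts, which also assigns multi-mapping reads.

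All barcodes were kept, with no filter beyond the marker rule, and no doublet caller was run. Doublets were instead limited by the rule that microglial markers exceed those of every other class, and by alternatives without other markers or without deep nuclei. UMIs were summed per animal and class, and tested in R 4.3.3 with edgeR 4.0.16 (filterByExpr, TMM, estimated dispersion, glmQLFit and glmQLFTest) and Benjamini-Hochberg adjustment over all genes tested, with a threshold of 0.05. Standard errors were derived from the fold change and the F statistic. CPM of the nuclei use the UMIs of the class in that animal, and CPM of whole cortex the counts scaled by TMM. Thinning drew 1000 UMIs per nucleus. The scripts were tested on simulated data with 200 changed genes.

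The members, lists and named genes were chosen with earlier results of these data known. Named genes were Trim28, those the study names for microglia, the called genes or else the 5 smallest p in each direction, the 4 members of each list with the most microglial UMIs, the 20 microglia-high genes with the most UMIs, in whole cortex the microglia-high genes called and the 3 smallest p in each direction, and the genes that differed from other glia. A few genes that the rule names are not reported here. Genes given by their UMI counts near 0 or by their load in 1 nucleus were named after their values were seen. Alternatives were RLE factors, library sizes alone, no filter on low counts, marker sums of 2 or 5, nuclei with other sums of 0, nuclei within 3 median absolute deviations of detected genes, other denominators, single glial classes as comparison, margins of 4-fold and 16-fold, the TEtranscripts table, only the 4 animals with nuclei, DESeq2 1.42.0 and leaving out each animal. The remaining samples of the series, from cultured progenitors and injected animals, were not used here. Columns that match no sample in the tables used numbered 0. All nuclei of an animal form 1 sample, and the labels name no batch.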

Additional observations from a re-analysis of the deposited data

Results flagged for a closer look

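For 22 genes the effect of the deletion in microglia differed from its mean effect in astrocytes, oligodendrocytes and progenitors, by a direct test of the difference between the effects (edgeR quasi-likelihood, adjusted p under 0.05). The values are differences of log2 effects, microglia minus the other glia. The difference was −5.50 for Gm13251, −4.66 for Gm13248, −3.38 for Gm26624, −2.55 for C230088H06Rik, −2.12 for Gm26573, −2.03 for Zfp808, −1.90 for Zbtb16, −1.35 for Gm28153, −0.97 for Spag5 and 1.61 for Tgfa, which are the 10 genes called in at least 1 other glial class. The first 2 of these values are fitted to control groups that held 0 or 1 UMI in some libraries and depend on how such counts are handled.

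The difference was −2.12 for Sgcd, −2.06 for Ncam2, −1.77 for Rorb, −1.61 for Mgat4c, −1.58 for Chsy3, −1.51 for Dcc, −1.46 for Rapgef4, −1.38 for Mmp16, −1.19 for Frmpd4, −1.19 for Itpr1 and −1.08 for Lrrc4c, the 11 genes that were lower in KO microglia, and 1.46 for 1110019D14Rik. The part of neuronal RNA in these 11 genes was not tested. Among them, Sgcd was not highest in control 65, and its level fell in every animal when the nuclei above 5000 UMIs were left out. Neuronal RNA was highest in control 65 and in the nuclei above 5000 UMIs. Of the 11 genes 2 were still called without those nuclei, 4 without that animal and 6 among the nuclei in which every other marker sum was 0. Of the 10 genes called in other glia the counts were 9, 6 and 8.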

How the results depend on the processing

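Depth limited the comparison, since the microglia of an animal held 344987 to 503998 UMIs and 3 counts stand for 5.95 to 8.70 CPM in a single library, so that genes near this level, such as most cytokine genes, could not be compared. The 2 animals per group give few degrees of freedom, and values that turn on 1 control are named here. No paired analysis was possible because the KO and control animals share no replicate numbers.

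Called genes between KO and control microglia numbered 0. RLE factors gave 1, no filter on low counts 166, other marker sums of 0 gave 40 and DESeq2 11. Leaving out an animal gave 0 to 525 genes, with 0 without KO 60 or KO 73, 525 without control 64 and 69 without control 65. Alternatives chosen after seeing the data were leaving out shared barcodes (0), the border macrophage nuclei (1) and the nuclei above 5000 UMIs (0). Without those deep nuclei the count was 1 without KO 60, 1 without KO 73, 327 without control 64 and 29 without control 65.

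The number of genes that differed from other glia was 22. No filter on low counts gave 60, a marker sum of 5 gave 10, other sums of 0 gave 68, nuclei within 3 median absolute deviations 8, no nuclei above 5000 UMIs 14 and progenitors alone 4. Leaving out an animal gave 5 to 75, with 5 without KO 60, 10 without KO 73, 75 without control 64 and 14 without control 65. Of the microglia-high genes, 9 were called in whole cortex without the filter and 1 at the 16-fold margin, and 2 to 4 without each animal. Over all genes in whole cortex, 621 of 29959 were called without the filter and 223 of 16271 in the main fit. Without each animal the count over all genes was 104 to 387.

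The share of microglia turned from −0.50 to 0.16 percentage points with other sums of 0 and to 2.85 of the glial nuclei. It was −2.09 within 3 median absolute deviations, −1.08 of the nuclei in 1 of 6 classes and −0.80 at a marker sum of 5, and in these 3 settings the groups did not overlap. The log2 ratio of summed levels ran without each animal from −0.0863 to 0.49 for homeostatic genes, from −0.0239 to 0.90 for disease-associated genes and from −0.91 to −0.16 for the neuronal list, the extremes being those without control 65 and control 64. With other sums of 0 it was −0.97 for the neuronal list and 0.60 for stress genes. Single genes turned in direction. Kcnip4 ran from −0.93 to 0.0794 and Snhg11 from −0.62 to 0.0296 without each animal, and Kcnip4 was at 0.18 without control 65 and the deep nuclei. Cd68 ran from −0.59 to 0.72 in microglia, with 0.62 without control 64 and the deep nuclei, and from −0.18 to 0.12 in whole cortex. The cause was not tested. A further 91 values of these counts, shares and summed levels under an alternative moved by less than 1.5 times or less than the spread between animals. For named genes, 560 values under an alternative stayed on their side of the threshold, 92 came to pass it, 152 no longer passed and 8 turned in direction.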

Other observations

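A few transcripts that look specific to 1 animal came from single nuclei. Ctsk and Atp6v0d2, which encode cathepsin K and a proton pump subunit of osteoclasts and some macrophages, had 58 and 28 UMIs over all 830 microglia. Of these, 53 and 28 lay in 1 nucleus of KO 60. Tshz2, a zinc finger gene, and Vwc2l had 74 and 27 UMIs, of which 54 and 22 were the highest counts of any nucleus, in control 64. Cd74 had 21 of its 42 UMIs in 1 nucleus of KO 73. A sum over an animal's microglia can thus rest on 1 nucleus for genes of this level.

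Border macrophage genes in whole cortex had a median log2 difference of −0.47 over 8 genes tested, of which 0 were called by edgeR's quasi-likelihood test. Their microglial median was 0.31 over 6 genes tested, also with 0 called. Mrc1, the mannose receptor gene, had a log2 difference of −1.004 in whole cortex (adjusted p = 0.236 by the same test) and of 0.05 in the microglia nuclei. Meningeal fibroblast genes had a median of −0.83 in whole cortex over 11 genes, of which 2 were called by the same test, against 1.37% of all genes tested.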
